A study of Homo sapiens with 4 samples.

Results

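The cells described here are ectoderm-directed human cells with the highest share of POU5F1 transcripts, set against cells of the same library in which no POU5F1 transcript was counted. Transcripts were counted as unique molecular identifiers (UMIs), tags that mark single captured RNA molecules. Of 16360 ectoderm cell barcodes, 13298 passed 2 filters, a minimum of 3000 UMIs and a mitochondrial UMI share of no more than 20%. The 1995 cells with the highest POU5F1 UMIs over total UMIs, 15% of those kept, form the POU5F1-high group. The 1367 cells with 0 POU5F1 UMIs, 10.3% of those kept, form the comparison and are called zero cells. Both transcriptome libraries of the series together held 31693 barcodes.

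POU5F1, also called OCT4, is a POU-domain transcription factor that holds the pluripotent state together with SOX2 and NANOG. On induction of neural ectoderm, pluripotent cells normally shut POU5F1 and NANOG off, keep SOX2, and switch on SOX1, SIX3 and other forebrain regulators. POU5F1 binds an octamer element in DNA, often beside a SOX element.

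The labels give H9, an established human embryonic stem cell line, for every sample. The POU5F1-high and zero cells come from 1 pooled culture that received a lentiviral guide library with EGFP and a second lentivirus with Cas9 and mCherry. It was sorted on fluorescence, left to recover for 1 week and induced towards ectoderm. The hPSC library, of 13862 cells at the same filters, is another culture given the same kind of lentiviruses and labelled pluripotent; guides differ from cell to cell within both libraries. Expression in 2 of the 2 transcriptome libraries disagreed with the labelled line, which applies to every value that follows.

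With 1 library there was no replicate check and no test between groups. UMIs were summed over the cells of a group and expressed as CPM, which relates them to all UMIs of the group, and every 95% interval covers counting error only. The POU5F1-high cells held 10364351 UMIs with a median of 4462 per cell, and the zero cells 5953363 with a median of 3932. Their median mitochondrial shares were 3.21% and 3.38%. Doublets were not removed, and 78 barcodes occurred in both libraries. No cell type known to lack POU5F1 was available in the ectoderm library to measure free RNA.

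POU5F1 itself chose the cells, so its values describe the choice. The POU5F1-high cells had 3 to 19 POU5F1 UMIs each, with a median of 5, and together 1076 CPM. The hPSC library stood at 1156 CPM. The last cell inside the threshold had 5 of 5983 UMIs, or 835.70 CPM, and the first outside had 12 of 14363, or 835.48 CPM. In the hPSC library, 9569 of 13862 cells, or 69.0% (exact interval 68.3 to 69.8%), lay at or above that threshold. The POU5F1 gene lies on GRCh38 at chromosome 6, 31164337 to 31180731, minus strand (GENCODE v29). Reads from its near-identical copies could be misassigned, but the 7 other POU5F1-named features held 30 UMIs in POU5F1-high cells and 4 in zero cells, against 11152 UMIs of POU5F1 itself in the POU5F1-high cells.

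**Figure D1:**
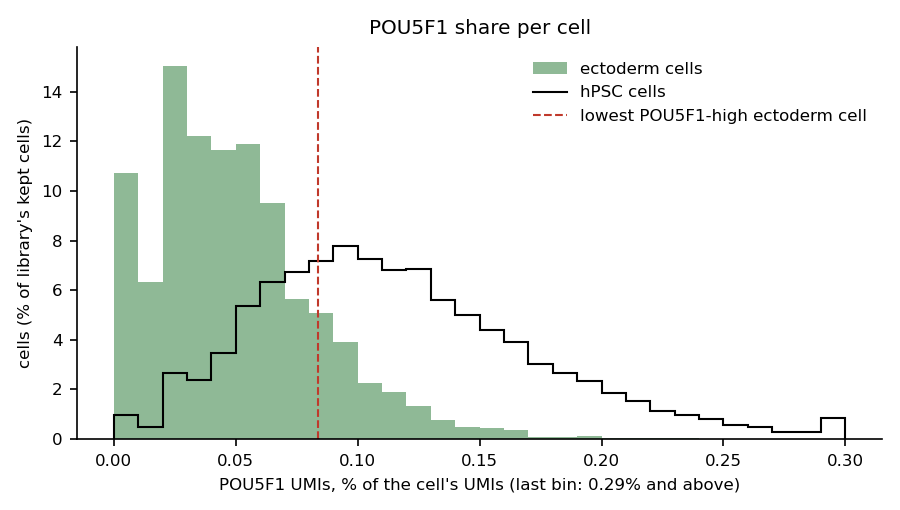
Share of each cell's UMIs that were POU5F1 (x axis, in %) against the percentage of each library's kept cells (y axis), for ectoderm cells (filled) and hPSC cells (line). The dashed line marks the lowest POU5F1-high cell; the ectoderm distribution runs through it without a gap, with 5.08% of ectoderm cells between 0.08 and 0.09% and 3.92% between 0.09 and 0.10%.

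A handful of UMIs per cell makes the choice sensitive to sampling, and this bears on the description of the cells as retaining high POU5F1. The UMIs of every cell were therefore divided at random, the cells were chosen on one portion by the same rule, and POU5F1 was read in the portion not used. Chosen on 80% of UMIs, the 1995 POU5F1-high cells held 606 CPM (573 to 640) of POU5F1 in the unused 20%, against 439 CPM (409 to 470) in 2003 zero cells. That is a ratio of 1.38 (1.26 to 1.51). In the portion that chose them, the same POU5F1-high cells had 1122 CPM. Chosen on 50% of UMIs, the unused portion gave 593 CPM (572 to 614) in POU5F1-high cells and 451 CPM (437 to 465) in 3735 zero cells, a ratio of 1.31 (1.25 to 1.38). On unused UMIs the POU5F1-high cells thus stood above the zero cells and well below the hPSC library, and the zero cells were not free of POU5F1. The label is borne out as a moderate difference within the library, not as an hPSC-like level.

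**Figure D2:**
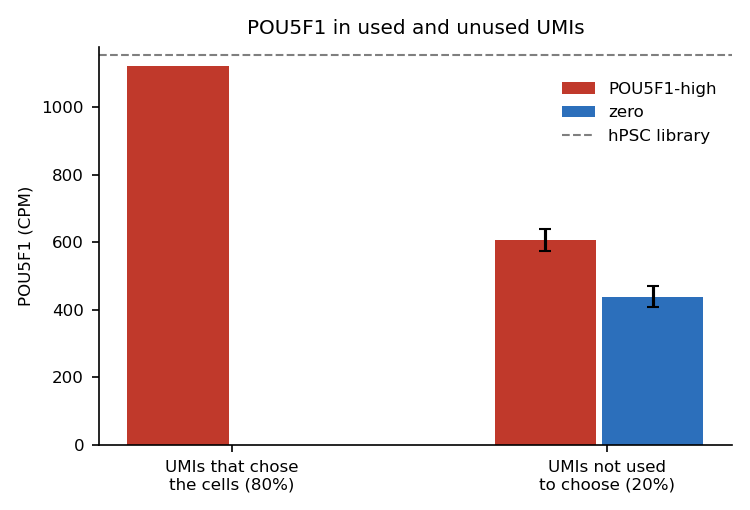
POU5F1 level (CPM, y axis) in cells chosen on 80% of their UMIs, in the UMIs that chose them (left) and in the UMIs not used (right), with 95% counting intervals on the right-hand bars. POU5F1-high cells had 606 CPM in unused UMIs, against 439 CPM in zero cells; the dashed line is the hPSC library at 1156 CPM, and the zero cells have no bar on the left because they were chosen at 0.

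A gene was counted as differing if it reached 20 CPM in either group and its log2 ratio of POU5F1-high over zero cells was 0.5 or more in size. By this rule of size, 66 of 5996 genes (1.1%) were higher in POU5F1-high cells and 65 (1.08%) were lower. The median log2 ratio was -0.01. The neural ectoderm genes were lower as a group, and 2 pluripotency surface genes, TDGF1 and PODXL, were higher. At 0.25 in size, 433 genes (7.22%) were higher and 390 (6.5%) lower. At 1 in size, 2 genes (0.0334%) were higher and 3 (0.05%) lower. The 2 were DCLK1, a microtubule-associated kinase, and C11orf96. The 3 were LMO1, SOX1 and MAPK10, a JNK-family kinase.

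Of 32 core pluripotency genes other than POU5F1, 29 reached 5 CPM. Of these, 22 had a log2 ratio above 0 and 7 below, with a median of 0.11, against -0.01 over all 10547 genes at that level. Among the 24 at 20 CPM or more, 2 were higher by the rule of size and 0 were lower. TDGF1 encodes a Nodal co-receptor and lies at chromosome 3, 46574534 to 46582463, plus strand. It had 1546 UMIs or 149 CPM in POU5F1-high cells and 485 UMIs or 81.5 CPM in zero cells, a log2 ratio of 0.87 (0.72 to 1.02). PODXL encodes podocalyxin, a cell surface sialomucin of pluripotent cells, at chromosome 7, 131500262 to 131558217, minus strand. It stood at 231 CPM in POU5F1-high cells and 132 CPM in zero cells, a log2 ratio of 0.81 (0.69 to 0.93). In UMIs not used to choose the cells, at the 80% split, both genes were also higher in POU5F1-high cells. TDGF1 was higher by a log2 ratio of 0.75 (0.47 to 1.04) and PODXL by 0.73 (0.51 to 0.96). Those UMIs are a part of the ones counted above. A gene on the opposite strand overlaps each of the 2 genes, LRRC2 for TDGF1 and AC008264.1 for PODXL. No source used here gives the strand setting of the counting, so part of either count could belong to the overlapping gene. The same holds for other genes named here, among them SIX6, ZIC1, LHX5, LDB2, C11orf96, MAPK10, HEY2, GREB1L, CDH1, CDH2 and NNAT.

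The other core pluripotency genes at 20 CPM or more did not reach the rule of size. L1TD1, an RNA-binding protein, had 253 CPM in POU5F1-high cells and 204 CPM in zero cells, a log2 ratio of 0.31. FOXH1, a partner of SMAD proteins in Nodal signalling, had 101 CPM and 82.6 CPM in the same order, a ratio of 0.30. DNMT3B, a de novo DNA methyltransferase, had 422 CPM in POU5F1-high cells and 368 CPM in zero cells, a ratio of 0.20. These 3 intervals lie above 0. LIN28A, which blocks let-7 maturation, was at 961 CPM in POU5F1-high cells and 971 CPM in zero cells. ZFP42, SALL4 and DPPA4 had log2 ratios of 0.03, 0.08 and 0.10. LIN28B was on the other side, with a log2 ratio of -0.21 (-0.33 to -0.10). Of the genes under 20 CPM, DPPA2, a germ-line and pluripotency factor, had 56 UMIs or 5.40 CPM in POU5F1-high cells and 17 UMIs or 2.86 CPM in zero cells, a log2 ratio of 0.92 (0.12 to 1.80). FOXD3, a forkhead factor, had 0.49 (-0.21 to 1.22).

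NANOG, the homeobox partner of POU5F1, was low in both groups. It had 143 UMIs or 13.8 CPM in POU5F1-high cells and 69 UMIs or 11.6 CPM in zero cells, a log2 ratio of 0.25 (-0.17 to 0.69), an interval that includes 0. The hPSC library had 178 CPM, so NANOG in POU5F1-high cells was lower than in hPSC by a log2 ratio of -3.69 (-3.94 to -3.45). With each cell thinned to 3000 UMIs, NANOG had a UMI in 4.26% of POU5F1-high cells, 3.29% of zero cells and 40.5% of hPSC cells, and unthinned in 6.57%, 4.54% and 58.9%. The Nodal inhibitor LEFTY1 had 0 UMIs in both ectoderm groups. The noncoding RNA LINC00458 had 5.60 CPM in POU5F1-high cells, 7.22 CPM in zero cells and 148 CPM in hPSC. POU5F1-high cells thus lacked the NANOG, LEFTY1 and LINC00458 levels of the pluripotent library. The core pluripotency list as a whole was not lower than in hPSC. Without POU5F1 it summed to 5521 CPM in POU5F1-high cells, 5137 CPM in zero cells and 5288 CPM in hPSC. Its median log2 ratio of POU5F1-high over hPSC cells was 0.03.

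SOX2, which pluripotent and neural cells share, was at 505 CPM in POU5F1-high cells and 497 CPM in zero cells, a log2 ratio of 0.02 (-0.04 to 0.09), and at 235 CPM in hPSC. NANOG and SOX2 are textbook genes of the octamer-binding factors, so the stretches of their promoters that hold an octamer core are shown, from RefSeq on GRCh38.p14. The motif searched was the 7-mer TTTGCAT, or ATGCAAA on the other strand, within 250 bases before each gene start, and capitals mark it. The NANOG stretch is chr12:7789222-7789348 and the SOX2 stretch chr3:181711765-181711891, both on the plus strand.
NANOG: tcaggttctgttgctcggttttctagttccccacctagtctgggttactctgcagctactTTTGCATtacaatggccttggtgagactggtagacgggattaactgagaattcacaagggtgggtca
SOX2: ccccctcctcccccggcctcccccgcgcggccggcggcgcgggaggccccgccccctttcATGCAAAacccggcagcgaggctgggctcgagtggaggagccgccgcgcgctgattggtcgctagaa
The motif starts 120 bases before the gene start in NANOG and 100 bases before it in SOX2. Of all 35116 promoter windows, 3.94% held it, and of the windows of genes at 20 CPM or more, 2.56% did. It occurred in 2 of 60 windows (3.33%) of the genes higher in POU5F1-high cells and in 2 of 63 windows (3.17%) of those lower. Windows were searched for 40 of the 66 higher genes and 47 of the 65 lower genes, and not for TDGF1, PODXL and SIX3. These letters were absent from the windows of SOX1, SOX3, LMO1, SIX6, FRZB, HESX1, ZIC1 and L1TD1. A match is a description of the window.

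Genes of the anterior neural plate were lower in POU5F1-high cells. Of 20 homeobox and ZIC genes of the anterior neural list, 11 reached 5 CPM, 10 of these had log2 ratios below 0, and the median was -0.48. Among the 10 at 20 CPM or more, 5 were lower by the rule of size and 0 were higher. SIX3, a forebrain and eye-field regulator, was at 340 CPM in POU5F1-high cells and 516 CPM in zero cells, a log2 ratio of -0.60 (-0.67 to -0.53). Its relative SIX6 was at 30.5 CPM in POU5F1-high cells and 60.1 CPM in zero cells, a log2 ratio of -0.98 (-1.20 to -0.76). HESX1, a forebrain repressor, had a log2 ratio of -0.66, ZIC1, a zinc finger neural regulator, -0.58, and LHX5, a LIM homeobox factor, -0.56. ZIC2, of the same family as ZIC1, was at 656 CPM in POU5F1-high cells and 657 CPM in zero cells. OTX2, a head organiser gene that is also counted with the pluripotency genes, was at 93.8 CPM in POU5F1-high cells and 116 CPM in zero cells, a log2 ratio of -0.31 (-0.45 to -0.16). It was at 4.54 CPM in hPSC, so the POU5F1-high cells held far more OTX2 than the pluripotent library. LHX2, RAX, EMX2 and NKX2-1 had 0 UMIs in POU5F1-high cells. Absence was not particular to that group: 5 genes of this list had 0 UMIs in POU5F1-high cells and 5 in zero cells, EMX2 among both.

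Among 19 neural SOX and basic helix-loop-helix genes, 12 reached 5 CPM, 11 of them had log2 ratios below 0, and the median was -0.23. SOX1, a SoxB1 factor and an early mark of neural commitment, lies at chromosome 13, 112067647 to 112070488, plus strand. It had 299 UMIs or 28.8 CPM in POU5F1-high cells and 346 UMIs or 58.1 CPM in zero cells, a log2 ratio of -1.01 (-1.24 to -0.78). SOX3, another SoxB1 factor, was at 28.7 CPM in POU5F1-high cells and 55.4 CPM in zero cells, a log2 ratio of -0.95 (-1.18 to -0.72). SOX1 and SOX3 were the 2 of 10 genes at 20 CPM or more that met the rule of size. SOX11, a SoxC factor of neural precursors, had a log2 ratio of -0.36, HES1, a Notch target, -0.29, and SOX21 -0.24. OLIG3, a dorsal neural tube factor, was at 44.2 CPM in POU5F1-high cells and 45.0 CPM in zero cells. The SoxB1 genes thus differed among themselves, SOX1 and SOX3 being about 1 log2 unit lower and SOX2 close to equal.

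Of 30 genes on a list of other neural progenitor genes, 21 reached 5 CPM, 15 with log2 ratios below 0, and the median was -0.31. Among the 19 at 20 CPM or more, 7 were lower and 2 were higher by the rule of size. Not all members are particular to neural progenitors: the list holds EDN1, IGFBP5, C11orf96 and HHEX, which also serves as an endoderm marker. IGFBP5 was 1 of the 7 and C11orf96 1 of the 2. LMO1, a LIM-only cofactor at chromosome 11, 8224304 to 8268716, minus strand, was at 41.2 CPM in POU5F1-high cells and 86.7 CPM in zero cells, a log2 ratio of -1.07 (-1.26 to -0.89). GREB1L was lower by -0.89, POU3F1, a POU factor of neural progenitors, by -0.71, and the imprinted gene NNAT by -0.70. CDH2, which encodes N-cadherin, was at 20.8 CPM in POU5F1-high cells and 34.8 CPM in zero cells, a log2 ratio of -0.74 (-1.02 to -0.46). CDH1, which encodes E-cadherin and is replaced by N-cadherin during neural induction, was at 240 CPM in POU5F1-high cells and 187 CPM in zero cells, a log2 ratio of 0.36 (0.26 to 0.47). In hPSC, CDH2 was at 36.9 CPM and CDH1 at 172 CPM. The zero cells lay nearer to these hPSC levels in both genes than the POU5F1-high cells did. LDB2, a LIM-domain-binding cofactor, was higher at 21.03 CPM in POU5F1-high cells against 11.1 CPM in zero cells, as was C11orf96 at 30.3 CPM against 14.9 CPM. The 20 neuronal microtubule and growth cone genes showed no common direction, with a median of 0.01 over 14 at 5 CPM. Of these MAP2 was lower by a log2 ratio of -0.56 and NEFL, a neurofilament, higher by 0.60.

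In unused UMIs at the 80% split, the neural genes read there were also lower in POU5F1-high cells. These UMIs are a part of those behind the ratios above, so the values are not a separate observation of these genes. SOX1 had 32.6 CPM in POU5F1-high cells and 46.6 CPM in zero cells, a log2 ratio of -0.52 (-0.997 to -0.043). SOX3 had a log2 ratio of -1.10, LMO1 -1.09, SIX6 -1.28 and SIX3 -0.51, each with an interval below 0. At the 50% split, where fewer POU5F1 UMIs chose the cells, these 4 ratios lay between -0.79 for SIX6 and -0.37 for SIX3, and SOX1 again stood at -0.52. FRZB, a secreted WNT inhibitor, and CDH2 had -0.63 and -0.66 at the 80% split and -0.42 and -0.41 at the 50% split, the last 2 values being under the rule of size. At the 50% split HESX1 had -0.33, FZD5 -0.29 and FZD2 and GLI3 -0.23 each. Across all named genes, 62 had a log2 ratio of 0.5 or more in size, some of them under 20 CPM in both groups. At the 50% split 28 of these 62 stayed past 0.5. GREB1L had -0.22 on the unused 20% of UMIs and -0.01 in the cells with exactly 1 guide.

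**Figure D3:**
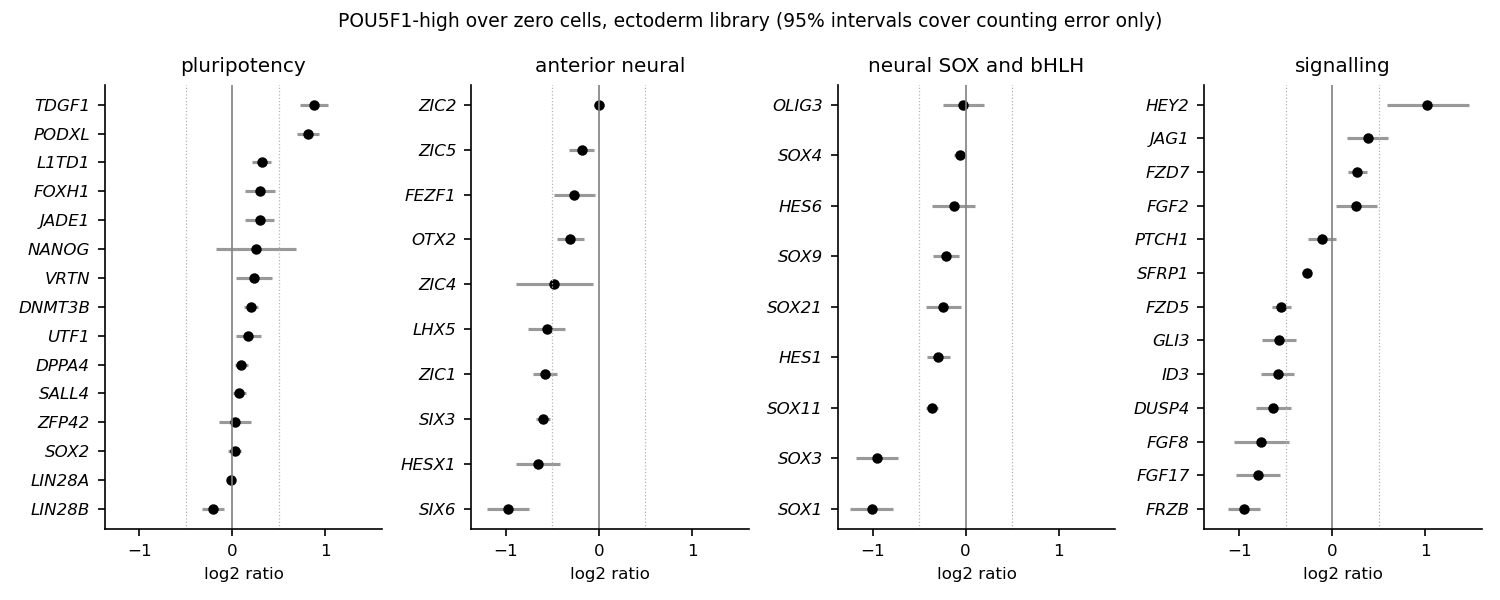
Log2 ratio of CPM in POU5F1-high over zero cells (x axis) for pluripotency, anterior neural, neural SOX and bHLH, and signalling genes; bars are 95% intervals of counting error, and dotted lines mark 0.5 in size. TDGF1 at 0.87 and PODXL at 0.81 lie right of the dotted line, whereas SIX6, SOX3 and SOX1 lie near -1.

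In the signalling lists, TDGF1 was higher, and FGF17, FGF8, DUSP4, FRZB, FZD2, FZD5, ID3 and GLI3 were lower by the rule of size. The shares to set beside the list counts below are those over all 5996 genes at 20 CPM, 1.1% higher and 1.08% lower. In the FGF and ERK list, 11 of 22 genes at 5 CPM lay above 0 and 11 below, with a median of -0.02, and 3 of 15 at 20 CPM were lower by the rule of size. The ligand FGF17 was at 28.8 CPM in POU5F1-high cells and 50.2 CPM in zero cells, a log2 ratio of -0.80, and FGF8, a ligand of the anterior neural ridge, at 18.8 and 31.9 CPM in the same order, a ratio of -0.76. DUSP4, a phosphatase that dampens ERK, had a log2 ratio of -0.63. The receptor FGFR1 and the ligand FGF2 had 0.15 and 0.26. DUSP6, another ERK phosphatase, was at 4.73 CPM in POU5F1-high cells, 5.71 CPM in zero cells and 197 CPM in hPSC.

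In the WNT list the median was -0.12 over 18 genes, and 3 of 14 genes at 20 CPM were lower. FRZB was at 48.4 CPM in POU5F1-high cells and 93.4 CPM in zero cells, a log2 ratio of -0.95 (-1.12 to -0.77), and its relative SFRP1 had -0.27. The receptors FZD2 and FZD5 each had -0.55, whereas FZD7 had 0.27 and the feedback target AXIN2 0.46. LEF1, a transcription factor that acts with beta-catenin, had 60 UMIs in POU5F1-high cells and 16 UMIs in zero cells, a log2 ratio of 1.11 (0.29 to 2.00), under 20 CPM in both. The Nodal and TGF-beta list had a median of 0.06 over 14 genes, and TDGF1 was the 1 of 11 genes at 20 CPM that was higher. SMAD2, the receptor ACVR2B and the feedback regulator SKIL had log2 ratios of 0.07, 0.06 and 0.04. NODAL had a UMI in 0.401% of thinned POU5F1-high cells and 0.0732% of zero cells, against 7.06% of hPSC cells, and in 0.702%, 0.0732% and 12.6% unthinned.

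In the BMP list, ID3, a BMP target, was at 53.3 CPM in POU5F1-high cells and 79.95 CPM in zero cells, a log2 ratio of -0.59, and was the 1 of 8 genes at 20 CPM that differed. ID1 and ID2, further targets, had 0.39 and 0.13. For ID1 the interval, -0.10 to 0.91, includes 0, and its levels were 10.8 CPM in POU5F1-high cells and 8.23 CPM in zero cells. Of 14 Notch genes at 5 CPM, 10 lay above 0 and the median was 0.13, with 0 of 11 at 20 CPM past the rule. The ligand JAG1 had 0.38, and HEY2, a Notch target just under 20 CPM, was at 19.5 CPM in POU5F1-high cells and 9.57 CPM in zero cells, a log2 ratio of 1.03 (0.59 to 1.48). The Hedgehog effector GLI3 was lower, at 52.5 CPM in POU5F1-high cells and 77.9 CPM in zero cells, the 1 of 3 Hedgehog genes at 20 CPM past the rule. None of 5 retinoic acid genes at 20 CPM differed by it, and their list had a median of -0.04. Among them, DHRS3, a retinaldehyde reductase, had 0.46 and the binding proteins CRABP1 and CRABP2 had -0.13 and -0.01.

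The remaining ectoderm cells, between 0 and the threshold, were divided by POU5F1 share into 3 groups of 3312. SOX1 stood at 58.1 CPM in zero cells, 48.0, 47.5 and 40.1 CPM in the low, middle and upper group, and 28.8 CPM in POU5F1-high cells. LMO1 stepped down in the same order through 86.7, 78.9, 71.6, 61.9 and 41.2 CPM. TDGF1 stepped up through 81.5, 101, 111, 123 and 149 CPM, and PODXL through 132, 149, 171, 186 and 231 CPM. NANOG lay between 10.8 and 13.8 CPM in all 5 groups. The hPSC library had 0.63 CPM of SOX1 and 0.73 CPM of LMO1, so the POU5F1-high cells lay much nearer to the other ectoderm cells in these genes than to hPSC.

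**Figure D4:**
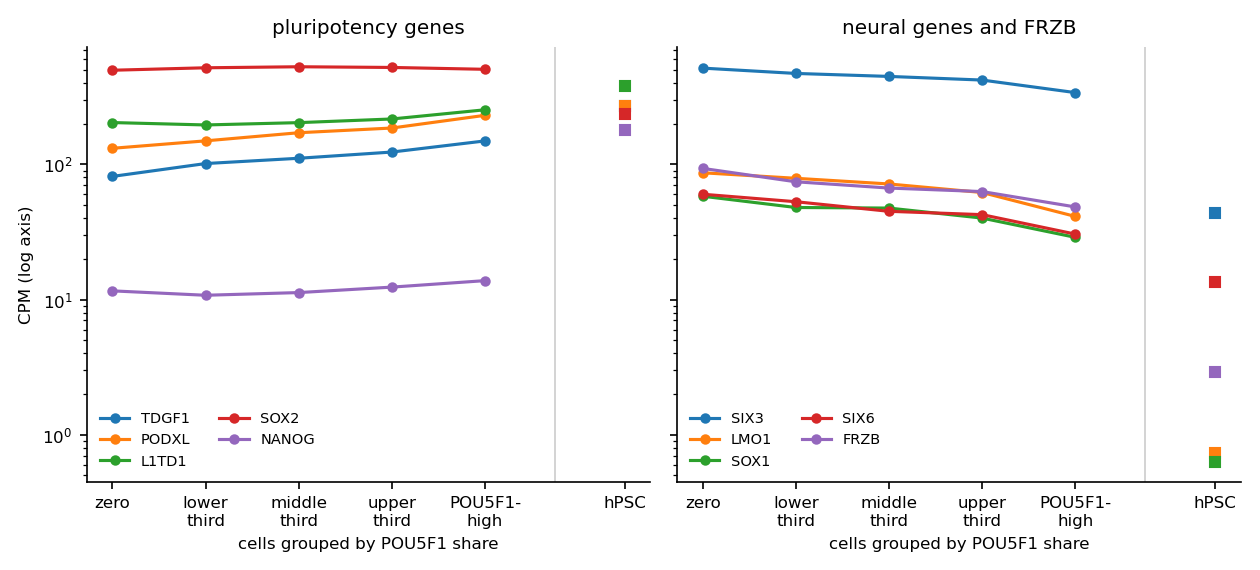
Level (CPM, log axis) of pluripotency genes (left) and neural genes with FRZB (right) in ectoderm cells ordered by POU5F1 share, from zero cells to POU5F1-high cells, with the hPSC library as squares. SOX1 steps down to 28.8 CPM and TDGF1 steps up to 149 CPM in POU5F1-high cells, while SOX2 is at 505 CPM in POU5F1-high cells and 497 CPM in zero cells.

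Within the POU5F1-high group, 3 equal subgroups of 665 cells by POU5F1 share had 886, 1029 and 1363 CPM of POU5F1. SIX3 stood at 381, 334 and 296 CPM in these subgroups, SOX1 at 35.9, 27.1 and 22.3 CPM, and TDGF1 at 131, 153 and 166 CPM. LMO1 stood at 46.9, 46.4 and 28.2 CPM, SIX6 at 31.4, 36.0 and 22.9 CPM, and NANOG at 14.5, 13.1 and 13.8 CPM. The neural genes were lowest in the subgroup with most POU5F1, which also had the fewest UMIs per cell, a median of 4125 against 4623 and 4697.

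At the level of single cells, thinned to 3000 UMIs, the groups overlapped widely. TDGF1 had a UMI in 31.5% (29.4 to 33.6%) of POU5F1-high cells and 20.2% (18.1 to 22.4%) of zero cells, and unthinned in 44.6% and 25.7%. SOX1 had a UMI in 8.47% (7.29 to 9.78%) of POU5F1-high cells and 13.1% (11.4 to 14.999%) of zero cells, and unthinned in 12.8% and 19.4%. SIX3 was found in 57.1% of POU5F1-high cells and 72.1% of zero cells, and unthinned in 69.0% and 80.4%. The 10 neural ectoderm progenitor markers at 5 CPM gave a median of 2 UMIs per POU5F1-high cell, with a highest value of 13, and 3 UMIs per zero cell, with a highest value of 15. None of these markers was seen in 17.6% of POU5F1-high cells, 7.02% of zero cells and 62.5% of hPSC cells. The share without a marker was thus higher in POU5F1-high than in zero cells, while most POU5F1-high cells carried at least 1 marker UMI.

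**Figure D5:**
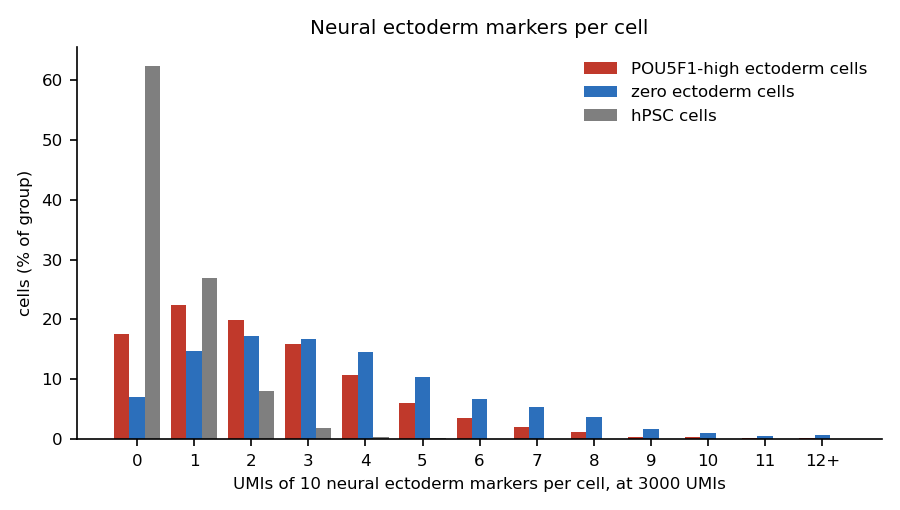
UMIs of 10 neural ectoderm progenitor markers per cell after thinning to 3000 UMIs (x axis) against the percentage of each group's cells (y axis). POU5F1-high cells have a median of 2 UMIs, zero cells 3 and hPSC cells 0.

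Pluripotency and neural transcripts were also compared within the POU5F1-high cells. After thinning, SIX3 had a UMI in 314 of the 628 POU5F1-high cells with a TDGF1 UMI (46.0 to 54.0%) and in 60.4% (57.8 to 63.0%) of the 1367 without one. LMO1 was seen in 6.85% (4.999 to 9.11%) of those with TDGF1 and 13.2% (11.5 to 15.2%) of those without. SOX1 was seen in 6.05% (4.32 to 8.21%) and 9.58% (8.07 to 11.3%) in the same order. PODXL was seen in 52.1% of POU5F1-high cells with TDGF1 and 42.1% of those without. The 85 POU5F1-high cells with a NANOG UMI had SOX1 in 9.41% (4.15 to 17.7%), against 8.43% (7.22 to 9.77%) of the 1910 without, a difference not detectable at this depth.

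The label was set against marker lists of other cell types. Summed over 13 pluripotent stem cell markers other than POU5F1, the level was 2862 CPM in POU5F1-high cells, 2602 CPM in zero cells and 3000 CPM in hPSC. LIN28A made up 961 CPM of it in POU5F1-high cells and 520 CPM in hPSC, and the list's median log2 ratio of POU5F1-high over hPSC cells was -0.42. Of the 8 at 20 CPM or more, 1 met the rule of size between POU5F1-high and zero cells. Summed over 12 neural ectoderm progenitor markers it was 786 CPM in POU5F1-high cells, 1192 CPM in zero cells and 170 CPM in hPSC, and 7 of the 9 at 20 CPM were lower in POU5F1-high cells. HES5 had 0 UMIs in both groups. PAX6 had a UMI in 0.401% of POU5F1-high cells and 0.146% of zero cells after thinning, or 0.752% and 0.219% unthinned. The mesoderm markers summed to 11.8 CPM in POU5F1-high cells and 15.3 CPM in zero cells, with EOMES, HAND1 and MSGN1 at 0 UMIs in POU5F1-high cells. The endoderm markers summed to 57.8 and 54.9 CPM in the same order, of which HHEX gave 57.2 CPM in POU5F1-high cells, with SOX17 and GATA6 at 0 there. The neural crest markers summed to 67.4 CPM in POU5F1-high cells and 54.8 CPM in zero cells, with PAX3 and TWIST1 at 0 in POU5F1-high cells. The neuron markers summed to 78.1 CPM in POU5F1-high cells and 84.2 CPM in zero cells. The surface ectoderm and placode markers summed to 615 and 532 CPM in that order, with KRT5, KRT14 and TP63 at 0 in POU5F1-high cells. The amnion list summed to 17.8 CPM in POU5F1-high cells and 12.8 CPM in zero cells, with HAND1 and VTCN1 at 0 in POU5F1-high cells, and the mesenchyme list to 107 CPM in POU5F1-high cells and 104 CPM in zero cells. The endothelial and blood list summed to 1.06 CPM in POU5F1-high cells and 0.84 CPM in zero cells.

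Cell cycle genes at 20 CPM or more stayed under the rule of size, but most G2 and M phase genes were lower in POU5F1-high cells. The S phase list, 40 genes, summed to 3048 CPM in POU5F1-high cells and 3113 CPM in zero cells. The G2 and M phase list summed to 7586 CPM in POU5F1-high cells and 8342 CPM in zero cells, and 45 of its 52 genes had log2 ratios below 0, with a median of -0.13. Intervals lay wholly below 0 for 25 of the 52 genes and wholly above 0 for 0. Over all 10547 genes at 5 CPM, 48.3% had log2 ratios above 0. The kinesin CENPE had a log2 ratio of -0.49 and the ubiquitin ligase G2E3 -0.32. None of the 30 S phase and 50 G2 and M phase genes at 20 CPM met the rule of size. With zero cells weighted to the cycle distribution of the POU5F1-high cells, all 62 named genes past 0.5 in size stayed past it. Those 62 include genes under 20 CPM. With zero cells weighted to the depth distribution of the POU5F1-high cells, 59 of the 62 did.

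Guides could be read for some of the cells. Exactly 1 guide with 20 or more amplicon UMIs was found in 3137 cells, of which 413, or 13.2% (12.001 to 14.4%), were POU5F1-high and 301, or 9.60%, were zero cells. Of the 138 such cells with a non-targeting guide, 16.7% (10.9 to 24.0%) were POU5F1-high. Among 44 targets with at least 30 such cells, the POU5F1-high share ran from 0 to 24.2% with a median of 12.2%. Set against the non-targeting share, 3 targets had intervals wholly below 16.7%: DHTKD1, ZNF593 at 5 of 80 cells and HIST1H1T at 2 of 41 cells. The upper limits of ZNF593 and HIST1H1T, 13.99% and 16.5%, lay inside the non-targeting interval, and only that of DHTKD1 lay below it. How many of 44 such intervals would lie below without any difference was not computed. The share was highest for PPIF, a mitochondrial cyclophilin, at 8 of 33 cells (11.1 to 42.3%), and lowest for DHTKD1, a mitochondrial dehydrogenase subunit, at 0 of 41 cells (0 to 8.60%). DHTKD1 was the 1 target whose interval lay wholly below the share over all cells with 1 guide, and 0 lay wholly above. The POU5F1 level summed over its cells was not lower, at 468 CPM (395 to 550) against 454 CPM (412 to 498) for non-targeting cells. For ZNF593 it was 452 CPM (397 to 512) and for HIST1H1T 443 CPM (369 to 526). For SOX2 the share was 9 of 47 cells, or 19.1% (9.15 to 33.3%), and for VRTN 13 of 110 cells, or 11.8% (6.45 to 19.4%).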

How the data were processed

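Single-cell 3′ transcriptomes of 1 ectoderm-induced and 1 hPSC culture, with 1 guide amplicon library each, were used. Unnormalized counts of UMIs for each gene in each barcode were deposited as sparse matrices. The submitters' processing notes name STARsolo, STAR and GRCh38. For these, version numbers, gene annotation and handling of strand were not given in the sources used here. Mismatch columns of the deposited amplicon tables are counts made by the authors, and a guide was taken as present at 20 amplicon UMIs. The matrices list 60674 features, 3 of them transgenes. The filters removed 3062 ectoderm barcodes for depth and 0 for mitochondrial share.

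Sums, CPM, exact Poisson, Clopper-Pearson and conditional binomial intervals were computed with Python 3.11.15, numpy 2.4.6, pandas 2.3.3 and scipy 1.17.1, and figures were drawn with matplotlib 3.10.9. The ratio step and the thinning were tested on simulated Poisson counts, and the other steps were not. List medians leave out POU5F1 and genes under 5 CPM in both groups. Thinning and splitting used seed 1. Genes named are measured members of the pluripotency, neural and signalling lists, up to 3 from each end of other lists, and the 20 highest and 20 lowest log2 ratios, leaving out POU5F1, mitochondrial, ribosomal protein and unnamed genes. Marker list members and genes at 0 UMIs were named in addition, after their values were seen. Members and lists were chosen with earlier results of these data known. Some members of the lists are not reported here. Other depth minimums, cell shares, comparison cells, weightings, scalings and thresholds were tried.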

Additional observations from a re-analysis of the deposited data

Results flagged for a closer look

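Transgene transcripts, which no comparison of neural or pluripotency genes used, were counted in the POU5F1-high cells. CAS9 had 46 UMIs in POU5F1-high cells and 33 UMIs in zero cells, or 4.44 and 5.54 CPM. MCHERRY had 4 UMIs in POU5F1-high cells and 7 UMIs in zero cells. No cells without the lentiviruses were available as a control, so these counts could not be set against a background. A count of 0 would allow up to 3 UMIs, but that limit is not a background level.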

How the results depend on the processing

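The counts of differing genes, 66 higher and 65 lower, depended on the number of UMIs compared and on the choice of cells. They became 145 higher and 137 lower with 5000 UMIs or more per cell, 275 and 279 in cells with exactly 1 guide, 133 and 149 with the highest 5% of cells, and 9 and 19 against all other cells. After thinning they were 25 and 32, on the unused 50% of UMIs 29 and 28, and on the unused 20% 225 and 245, a split added after seeing the data. A minimum of 5 CPM gave 342 and 323, a minimum of 50 CPM gave 25 and 34, and depth weighting gave 111 lower. The anterior neural median, -0.48, became -0.70 with the highest 5%, -0.33 on the unused 50% of UMIs, -0.31 against all other cells and -0.29 after thinning. PROM1 changed sign to -0.021 at 5000 UMIs and ID4 to 0.042 in cells with 1 guide; the cause was not tested. Under every setting at least 61 of the 62 named genes past 0.5 in size, whatever their CPM, kept their sign. Of these, 23 (all other cells) to 62 stayed past 0.5 in size. The core pluripotency median ran from 0.03 to 0.16 and the SOX and helix-loop-helix median from -0.37 to -0.14. No paired analysis was possible because 1 library holds both groups of cells. Single-library data, a handful of POU5F1 UMIs per cell and unremoved doublets limit every value.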

Other observations

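Of 20 p53 target genes, 17 reached 5 CPM, 12 of these had log2 ratios above 0, and the median was 0.31, against -0.01 over all genes at that level. The apoptosis gene PMAIP1 was at 237 CPM in POU5F1-high cells, 165 CPM in zero cells and 462 CPM in hPSC, a log2 ratio of POU5F1-high over zero cells of 0.52 (0.42 to 0.63). RRM2B, a ribonucleotide reductase subunit, was at 60.7 CPM in POU5F1-high cells and 41.3 CPM in zero cells, a log2 ratio of 0.55 (0.34 to 0.77). PHLDA3, under 20 CPM, had 0.72 (0.28 to 1.17), whereas BBC3 and SESN1 had -0.25 and -0.22. The 2 genes PMAIP1 and RRM2B met the rule of size among 13 at 20 CPM.

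Of 16 glycolysis and hypoxia genes at 5 CPM, 15 had log2 ratios above 0, with a median of 0.15, and 0 of 14 at 20 CPM met the rule of size. PDK1, a kinase that holds pyruvate out of the mitochondrial cycle, had 155 UMIs in POU5F1-high cells and 40 UMIs in zero cells, a log2 ratio of 1.15 (0.64 to 1.69), under 20 CPM in both. VEGFA, a hypoxia-induced growth factor, had -0.37. The 14 cholesterol synthesis genes at 5 CPM had a median of 0.08. Of 18 adhesion and filament genes the median was -0.05, and TPM1, a tropomyosin, was at 877 CPM in POU5F1-high cells and 1166 CPM in zero cells, a log2 ratio of -0.41 (-0.46 to -0.37).

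Other genes at the ends of the ratios fell in none of these lists. Among the highest were CXCL12, a chemokine, with 24.2 CPM in POU5F1-high cells and 13.3 CPM in zero cells and BCOR, a transcriptional corepressor, with 49.6 and 29.7 CPM in the same order. Among the lowest were RIPPLY3, a transcriptional repressor, with 383 CPM in POU5F1-high cells and 636 CPM in zero cells, FGFBP3, an FGF-binding protein, with 115 and 192 CPM in the same order, and EPHA4, an ephrin receptor, with 31.3 and 54.3 CPM. Guide calls also differed between the groups and the remaining cells. Several guides were read in 3.16% (2.43 to 4.02%) of POU5F1-high cells and 2.63% of zero cells, and in 6.93% of all cells outside the POU5F1-high group, whose median UMI count was 5383.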
